A study of Mus musculus with 12 samples.

Results

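Expression of 10 genes of the Wnt pathway was described in spheres of skin-derived precursors (SKPs) grown from mouse skin: the ligand Wnt5a, the receptor Lgr5, the feedback genes Axin2, Nkd1 and Nkd2, and the secreted antagonists Sfrp1, Sfrp2, Sfrp4, Dkk2 and Dkk3. The genes were taken by symbol from the annotation of the array, with the brightest probe set where a symbol had several, and all 10 were found among 22180 genes. Of the 10, 8 were among the 13153 genes bright enough to be tested, and Nkd1 and Sfrp4 were not. SKPs are cells of the dermis that can be grown as spheres in suspension and can give rise to dermal cell types. By its title, the series looked for drugs that improve repair of the skin by means of screens on dermal stem cells.

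There were 4 groups of 3 arrays each. The first held SKPs from injured skin treated with alprostadil (prostaglandin E1), the second SKPs from injured skin treated with trimebutine maleate, the third SKPs from injured skin treated with vehicle, and the fourth SKPs from uninjured skin treated with vehicle. They are called wound alprostadil, wound trimebutine, wound vehicle and uninjured vehicle. All mice were 9 months old, of a strain that the labels write as CD57/Bl6. The labels name no transgene or deletion in any group. All cells had been passed into secondary spheres in medium with FGF2 at 40 ng/ml and EGF at 20 ng/ml, so the arrays read cultured cells and not the skin itself. The 3 arrays of a group are separate isolates by the text of the series. The labels used here give no dose, time of treatment or skin site.

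Wnt proteins are secreted ligands that bind Frizzled receptors. In the canonical branch they stabilise beta-catenin, which enters the nucleus and works with TCF and LEF factors on target genes, and several of these targets encode inhibitors that feed back on the pathway. In skin, Wnt signals act in the dermal papilla, in the growth phase of the hair follicle and in the formation of the dermis, and dermal cells secrete many of the antagonists.

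Promoter windows are shown because Axin2 is a direct target of beta-catenin and binding sites of TCF and LEF factors share a short core. RefSeq promoter windows (mouse GRCm38.p6, from 250 bases before to 50 bases after the gene start) were at hand for 5 of the 10 genes, Axin2, Nkd1, Nkd2, Sfrp2 and Dkk2. The windows of Axin2 and of the antagonists Dkk2 and Sfrp2 are printed, Axin2 having the smallest SD over the 12 arrays among the tested genes of the set (0.22) and the antagonists having SDs of 0.61 and 0.85. Capitals mark a match to a core, searched as ACAAAG or TCAAAG on both strands (CTTTGT and CTTTGA on the printed strand). The 3 windows lie at chr11:108920099-108920398, chr3:132085042-132085341 and chr3:83766071-83766370, all on the plus strand.
Axin2: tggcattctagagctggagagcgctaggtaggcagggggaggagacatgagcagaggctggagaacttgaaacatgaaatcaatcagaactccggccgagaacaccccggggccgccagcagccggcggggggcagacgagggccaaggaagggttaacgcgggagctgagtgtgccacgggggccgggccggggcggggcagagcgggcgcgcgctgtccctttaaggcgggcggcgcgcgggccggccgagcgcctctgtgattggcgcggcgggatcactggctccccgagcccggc
Dkk2: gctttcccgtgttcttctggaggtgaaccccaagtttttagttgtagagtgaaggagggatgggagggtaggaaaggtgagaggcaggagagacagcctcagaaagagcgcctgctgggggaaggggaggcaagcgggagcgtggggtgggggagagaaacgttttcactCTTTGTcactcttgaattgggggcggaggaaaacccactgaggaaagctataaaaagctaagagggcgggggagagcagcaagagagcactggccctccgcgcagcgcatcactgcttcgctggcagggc
Sfrp2: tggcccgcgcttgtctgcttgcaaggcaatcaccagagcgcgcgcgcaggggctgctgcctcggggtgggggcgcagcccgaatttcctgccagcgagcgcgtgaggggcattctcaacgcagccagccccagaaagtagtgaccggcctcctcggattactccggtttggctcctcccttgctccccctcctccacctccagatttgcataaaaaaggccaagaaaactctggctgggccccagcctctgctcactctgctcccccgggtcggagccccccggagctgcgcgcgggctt
Dkk2 was the only one of the 5 windows with a match, 80 bases before the gene start. One or the other core stood in 31.2% of 32851 promoter windows of this length, ACAAAG in 18.7% and TCAAAG in 16%, so a match is common, and no match says only that these letters are not in the window. GC content was 70% in the Axin2 window, 57.7% in that of Dkk2 and 66% in that of Sfrp2, against a median of 52.7% over all windows. The arrays measured no binding and no methylation.

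Values are log2 expression levels per probe set, so a difference of 1 unit is a factor of 2, and levels of different genes are not set against each other because probes differ in brightness. Array medians lay between 6.57 and 6.74. All 10 dermal fibroblast markers were above the array median on every array. Of the 14 markers of SKPs and dermal papilla, 11 were above the array median on every array and 1, Sox2, was below it on every array, and Nes lay between 6.60 and 7.12. Arrays of one group stood apart: on the first principal component, which carried 43.8% of the variance, wound vehicle had 34.10, 38.88 and -13.91 for replicates 1 to 3, and uninjured vehicle had -27.73, -24.62 and 7.45. Macrophage markers had a mean level of 10.66 on wound alprostadil replicate 1 and of 6.40 to 7.52 on the other 11 arrays.

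None of the 8 tested Wnt genes passed an adjusted p of 0.05 in any of the 5 comparisons or in the F test across the 4 groups (limma, adjusted over 13153 genes). Levels differed widely between isolates of one group, most of all for Sfrp1. In wound vehicle spheres 7 of the 8 lay below uninjured vehicle, and in wound trimebutine spheres all 8 had a mean at or above that of wound vehicle. Among the 7 was Lgr5, which passed the filter mainly through uninjured arrays on which it was bright. The 2 untested genes, both with dim probe sets, went the other way in both comparisons. Nkd1 was at 0.25 and -0.06, and Sfrp4 at 0.17 and -0.17. These 2 comparisons use the same wound vehicle arrays, so they are not independent of each other. By group mean, wound vehicle was the lowest of the 4 groups for 7 of the 8, all but Axin2. Uninjured vehicle was the highest for Wnt5a, Lgr5, Nkd2, Dkk2 and Dkk3, and wound trimebutine for Sfrp1 and Sfrp2. For each of the 8, groups next to each other in the order of means overlapped. In bulk RNA, fewer cells of a type and less RNA per cell cannot be told apart.

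**Figure D1:**
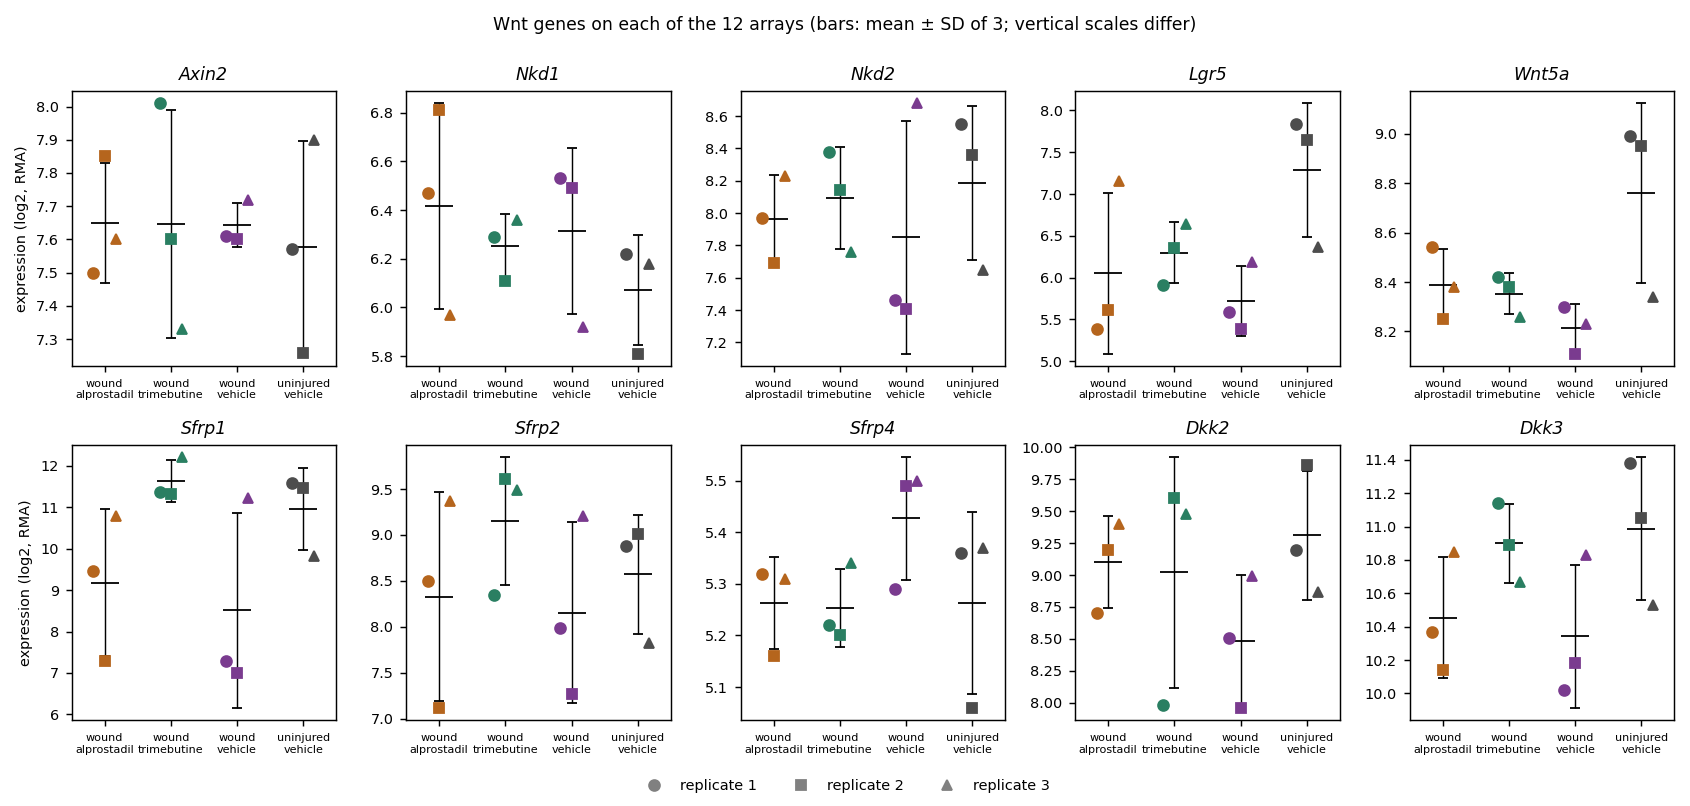
Log2 expression of the 10 Wnt genes on each of the 12 arrays (points) with the group mean (line), groups from left to right wound alprostadil, wound trimebutine, wound vehicle and uninjured vehicle. Sfrp1 spans 7.01 to 12.20, and Sfrp4 stays between 5.06 and 5.50.

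Wnt5a, a ligand that acts mainly through the beta-catenin-independent branch, was lower in each of the wound groups than in uninjured vehicle. Its level was 8.54, 8.25 and 8.38 in wound alprostadil, 8.42, 8.38 and 8.26 in wound trimebutine, 8.30, 8.11 and 8.23 in wound vehicle, and 8.99, 8.95 and 8.34 in uninjured vehicle. Uninjured vehicle replicates 1 and 2 were the highest of the 12 arrays, while replicate 3 lay inside the range of the wounds given a drug. Wound vehicle and uninjured vehicle did not overlap, with 8.30 as the highest wound value and 8.34 as the lowest uninjured value. The mean was 8.21 ± 0.10 in wound vehicle and 8.76 ± 0.36 in uninjured vehicle (SD, n = 3 each), a difference of -0.55 ± 0.16 log2 units (SE, 95% interval -0.90 to -0.20) with an adjusted p of 0.218. Over all 9 wound arrays against the 3 uninjured ones it was -0.44 ± 0.13, with an adjusted p of 0.234. Without uninjured vehicle replicate 3 the difference between wound vehicle and uninjured vehicle was -0.76, with an adjusted p of 0.0312, and over the alternatives run its adjusted p lay between 0.00187 and 0.642. The drug groups differed little from wound vehicle, by 0.18 ± 0.16 for alprostadil (95% interval -0.17 to 0.53) and 0.14 ± 0.16 for trimebutine (95% interval -0.21 to 0.49).

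Lgr5, a receptor for R-spondins that marks stem cells of the hair follicle and gut, was dim in these spheres and brightest in uninjured vehicle. It lay above the array median on 3 of the 12 arrays, exactly the number the filter asks for, and these were uninjured vehicle replicates 1 and 2 and wound alprostadil replicate 3. Nkd1, just outside the filter, was above the median on 1 array. The level of Lgr5 was 5.39, 5.61 and 7.15 in wound alprostadil, 5.91, 6.35 and 6.64 in wound trimebutine, 5.59, 5.38 and 6.19 in wound vehicle, and 7.84, 7.65 and 6.37 in uninjured vehicle. The highest wound vehicle value was below the lowest uninjured one, but wound alprostadil replicate 3 and wound trimebutine replicate 3 lay above uninjured vehicle replicate 3. The mean of 5.72 ± 0.42 in wound vehicle, against 7.29 ± 0.80 in uninjured vehicle (SD, n = 3 each), gave a difference of -1.57 ± 0.50 log2 units (SE, 95% interval -2.67 to -0.46) and an adjusted p of 0.254. Since Lgr5 entered the test through its 2 bright uninjured arrays and 1 wound array, it could pass the filter only by being bright there, and its count among the tested genes is no support. Over all wound arrays the difference was -1.26 ± 0.41, with an adjusted p of 0.285. The intervals against wound vehicle ran from -0.52 to 1.68 for trimebutine and from -0.77 to 1.43 for alprostadil. A second, dimmer probe set of Lgr5 lay between 5.28 and 5.80 on all arrays and differed by -0.03 between wound vehicle and uninjured vehicle, so the difference rests on 1 probe set.

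Axin2, a scaffold of the beta-catenin destruction complex and a direct target of the pathway, had a smaller range over the 12 arrays, 0.76 log2 units, than the other 7 tested genes. It had 7.50, 7.85 and 7.60 in wound alprostadil, 8.01, 7.60 and 7.33 in wound trimebutine, 7.61, 7.60 and 7.72 in wound vehicle, and 7.57, 7.26 and 7.90 in uninjured vehicle. All 4 groups overlapped and the means lay between 7.58 and 7.65. The difference of wound vehicle from uninjured vehicle was 0.07 ± 0.19 log2 units (SE, 95% interval -0.36 to 0.50, adjusted p 0.903), that of wound trimebutine from wound vehicle 0.00 ± 0.19 (95% interval -0.43 to 0.43), and that of wound alprostadil from wound vehicle 0.01 ± 0.19 (95% interval -0.42 to 0.43). With array weights, described further on, the difference of all wound groups from uninjured vehicle was 0.31 ± 0.11, with an adjusted p of 0.0457, against 0.07 ± 0.16 without them; over the alternatives run the value lay between -0.09 and 0.31 and the adjusted p between 0.0457 and 0.999. The second probe set of Axin2, at 6.64 to 7.17, was -0.19 in wound vehicle relative to uninjured vehicle, of opposite sign to the first.

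Nkd1 and Nkd2, intracellular inhibitors that bind Dishevelled, differed in that Nkd2 passed the filter and Nkd1 did not. Nkd2 had 7.97, 7.69 and 8.23 in wound alprostadil, 8.38, 8.14 and 7.76 in wound trimebutine, 7.46, 7.41 and 8.68 in wound vehicle, and 8.55, 8.36 and 7.65 in uninjured vehicle. Wound vehicle replicate 3 was the highest of the 12 arrays and replicates 1 and 2 of the same group were the lowest, so the group spanned the whole range of the series. The difference between wound vehicle and uninjured vehicle was -0.33 ± 0.35 (SE, 95% interval -1.11 to 0.44, adjusted p 0.697), and lay between -0.75, without wound vehicle replicate 3, and -0.12, without wound vehicle replicate 2. Against wound vehicle it was 0.24 ± 0.35 for trimebutine (95% interval -0.53 to 1.01) and 0.11 ± 0.35 for alprostadil (95% interval -0.66 to 0.88). Nkd1 lay between 5.81 and 6.81, with group means of 6.42 ± 0.42 in wound alprostadil, 6.25 ± 0.13 in wound trimebutine, 6.31 ± 0.34 in wound vehicle and 6.07 ± 0.23 in uninjured vehicle (SD, n = 3 each), and was not tested.

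Sfrp1, a secreted protein that binds Wnt ligands, had the widest span of the 10 genes. Its level was 9.46, 7.28 and 10.79 in wound alprostadil, 11.36, 11.31 and 12.20 in wound trimebutine, 7.30, 7.01 and 11.21 in wound vehicle, and 11.59, 11.45 and 9.81 in uninjured vehicle. The lowest and highest arrays were 5.18 log2 units apart, a 36.4-fold range. Wound vehicle replicates 1 and 2 and wound alprostadil replicate 2 were at 7.01 to 7.30, while every wound trimebutine array was at 11.31 or above. Wound trimebutine lay above every array of wound vehicle and of wound alprostadil, but by only 11.31 against 11.21 at the nearest pair of arrays. The mean was 11.62 ± 0.50 in wound trimebutine and 8.51 ± 2.34 in wound vehicle (SD, n = 3 each), a difference of 3.11 ± 1.13 log2 units (SE, 95% interval 0.60 to 5.63), or 8.65-fold, with an adjusted p of 0.528. Leaving out 1 array at a time moved this difference between 2.36, without wound vehicle replicate 2, and 4.46, without wound vehicle replicate 3, and the adjusted p was 0.077 without that array, 0.0058 to 0.976 over the alternatives run. Trimebutine was above alprostadil by 2.45 ± 1.13, with a 95% interval of -0.07 to 4.96 and an adjusted p of 0.752, and by 1.5 without wound alprostadil replicate 2. Wound vehicle was below uninjured vehicle by a difference of -2.44 ± 1.13 (95% interval -4.96 to 0.07, adjusted p 0.397), from -3.79 without wound vehicle replicate 3 to -1.69 without wound vehicle replicate 2, and the groups overlapped because wound vehicle replicate 3 was above uninjured vehicle replicate 3.

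Sfrp2 and Sfrp4, of the same family of ligand-binding proteins, differed in that Sfrp2 passed the filter on dim probe sets and Sfrp4 did not. Sfrp2 had 8.50, 7.12 and 9.37 in wound alprostadil, 8.35, 9.61 and 9.49 in wound trimebutine, 7.99, 7.27 and 9.21 in wound vehicle, and 8.88, 9.01 and 7.83 in uninjured vehicle. The 4 groups overlapped, and wound vehicle replicate 2 and wound alprostadil replicate 2 were the lowest arrays, as for Sfrp1. Wound trimebutine was above wound vehicle by 0.99 ± 0.64 (SE, 95% interval -0.44 to 2.42, adjusted p 0.59), by 0.55 without wound vehicle replicate 2 and by 1.52 without wound vehicle replicate 3. Wound vehicle differed from uninjured vehicle by -0.42 ± 0.64 (95% interval -1.84 to 1.01, adjusted p 0.8). Its second probe set lay between 5.89 and 6.48 and differed by 0.01 between wound vehicle and uninjured vehicle. Sfrp4 lay between 5.06 and 5.50, below the median of every array, and was not tested.

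Dkk2 and Dkk3 are secreted relatives of Dkk1. Dkk2 binds the coreceptors Lrp5 and Lrp6, while Dkk3 is a divergent member whose role in the pathway is less clear. Dkk2 had 8.70, 9.20 and 9.40 in wound alprostadil, 7.98, 9.60 and 9.48 in wound trimebutine, 8.51, 7.96 and 8.99 in wound vehicle, and 9.20, 9.86 and 8.87 in uninjured vehicle. All groups overlapped, and wound vehicle differed from uninjured vehicle by -0.83 ± 0.44 (SE, 95% interval -1.80 to 0.15, adjusted p 0.457). Against wound vehicle the difference was 0.53 ± 0.44 for trimebutine (95% interval -0.44 to 1.51) and 0.61 ± 0.44 for alprostadil. For trimebutine it was 1.05 without wound trimebutine replicate 1 and 0.24 without wound trimebutine replicate 2.

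Dkk3 was 10.37, 10.14 and 10.85 in wound alprostadil, 11.14, 10.89 and 10.67 in wound trimebutine, 10.02, 10.18 and 10.83 in wound vehicle, and 11.38, 11.05 and 10.53 in uninjured vehicle. The groups overlapped through wound vehicle replicate 3 and uninjured vehicle replicate 3. Its mean of 10.34 ± 0.43 in wound vehicle, against 10.99 ± 0.42 in uninjured vehicle (SD, n = 3 each), differed by -0.65 ± 0.27 (SE, 95% interval -1.26 to -0.04, adjusted p 0.363). Wound trimebutine was above wound vehicle by 0.56 ± 0.27 (95% interval -0.05 to 1.17, adjusted p 0.539), and wound alprostadil by 0.11 ± 0.27 (95% interval -0.50 to 0.72).

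Counted over the 8 tested genes, wound vehicle against uninjured vehicle gave 7 differences below 0, with a median of -0.6, while 48.6% of all 13153 genes were below 0, with a median of 0.01. The untested Nkd1 and Sfrp4 were above 0, at 0.25 and 0.17. An unadjusted p under 0.05 was reached by 3 of the 8, Wnt5a, Lgr5 and Dkk3, all lower, against 13% of all genes in either direction. Groups that did not overlap, with wound vehicle lower, were seen for 2 of the 8, Wnt5a and Lgr5, against 10% of all genes. Lgr5 is in each of these counts of lower genes, but it passed the filter mainly through uninjured arrays. Its part in them is therefore no support, and without it Wnt5a alone had groups apart. The adjusted threshold was passed by 0 of the 8 and by 0.0456% of all genes.

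In wound trimebutine against wound vehicle all 8 differences were at or above 0, with a median of 0.55, while 50% of all genes were above 0, with a median of 0. The untested Nkd1 and Sfrp4 were below 0, at -0.06 and -0.17. Sfrp1 alone of the 8 reached an unadjusted p under 0.05, against 9.43% of all genes, and was also the only one whose groups did not overlap with trimebutine higher, against 9.21% of all genes. The adjusted threshold was passed by 0% of genes. Shares of 1 in 8 are near these backgrounds.

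In wound alprostadil against wound vehicle all 8 differences were above 0, with a median of 0.18, and the interval of each of them held 0. Among all genes 59.4% were above 0, with a median of 0.03. Of the untested genes, Nkd1 was at 0.11 and Sfrp4 at -0.17. Every adjusted p of the 8 was 0.998. No gene of the 8 reached an unadjusted p under 0.05 or had groups apart, against 2.75% of all genes with such a p and 2.78% with alprostadil higher and the groups apart, and 0% of genes passed the adjusted threshold. The 95% intervals ran from -1.85 to 3.18 for Sfrp1, from -1.25 to 1.60 for Sfrp2 and from -0.36 to 1.59 for Dkk2, so a difference of 1 unit lay inside each of these intervals.

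The drugs were compared directly as wound trimebutine against wound alprostadil. For the 7 tested genes other than Sfrp1 the differences ran from -0.08 ± 0.44 for Dkk2 to 0.82 ± 0.64 for Sfrp2, with adjusted p between 0.752 and 0.995. Of the 8 genes, 5 had differences above 0, with a median of 0.19, while 46.2% of all genes were above 0, with a median of -0.01, and Sfrp1 alone had groups apart with trimebutine higher, against 5.21% of all genes. An unadjusted p under 0.05 was reached by 0 of the 8 and 4.42% of all genes, and 0% of genes passed the adjusted threshold. Over all wound arrays against uninjured vehicle, 7 of the 8 differences were below 0, with a median of -0.43, while 46.7% of all genes were below 0, with a median of 0.01. The untested Nkd1 and Sfrp4 were above 0 there, at 0.26 and 0.05. An unadjusted p under 0.05 was reached by 2 of the 8, Wnt5a and Lgr5, against 10.3% of all genes, and the adjusted threshold by 0 of the 8 and 0.243% of all genes. In the F test the same 2 genes reached an unadjusted p under 0.05, against 7.89% of all genes, and 0.0152% of all genes passed after adjustment. Because of how Lgr5 passed the filter, its part is no support in these counts or in those with array weights that follow. With limma's array weights, which give each array its own weight in the fit, 6 of the 8 passed the adjusted threshold in wound vehicle against uninjured vehicle: Nkd2 at -0.78, Lgr5 at -1.99, Sfrp1 at -3.80, Dkk2 at -1.32, Dkk3 at -0.93 and Wnt5a at -0.67. In wound trimebutine against wound vehicle 4 of the 8 passed, Sfrp1 at 3.96, Sfrp2 at 1.59, Dkk2 at 1.05 and Dkk3 at 0.74. Over all wound groups against uninjured vehicle 7 of the 8 passed, all but Sfrp2, with Axin2 higher and the others lower. The adjusted p of these calls lay between 0.00103 and 0.0457, and the same weights called 38%, 30.7% and 31.7% of all genes in the 3 comparisons. For replicates 1 to 3 the weights were 0.68, 5.99 and 0.49 in uninjured vehicle and 2.70, 0.98 and 0.32 in wound vehicle. They were 0.45, 4.69 and 1.41 in wound trimebutine and 0.30, 1.31 and 0.49 in wound alprostadil. The weighted means of uninjured vehicle and wound trimebutine thus lean mostly on replicate 2 of each, and wound vehicle replicate 3 counts for little.

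**Figure D2:**
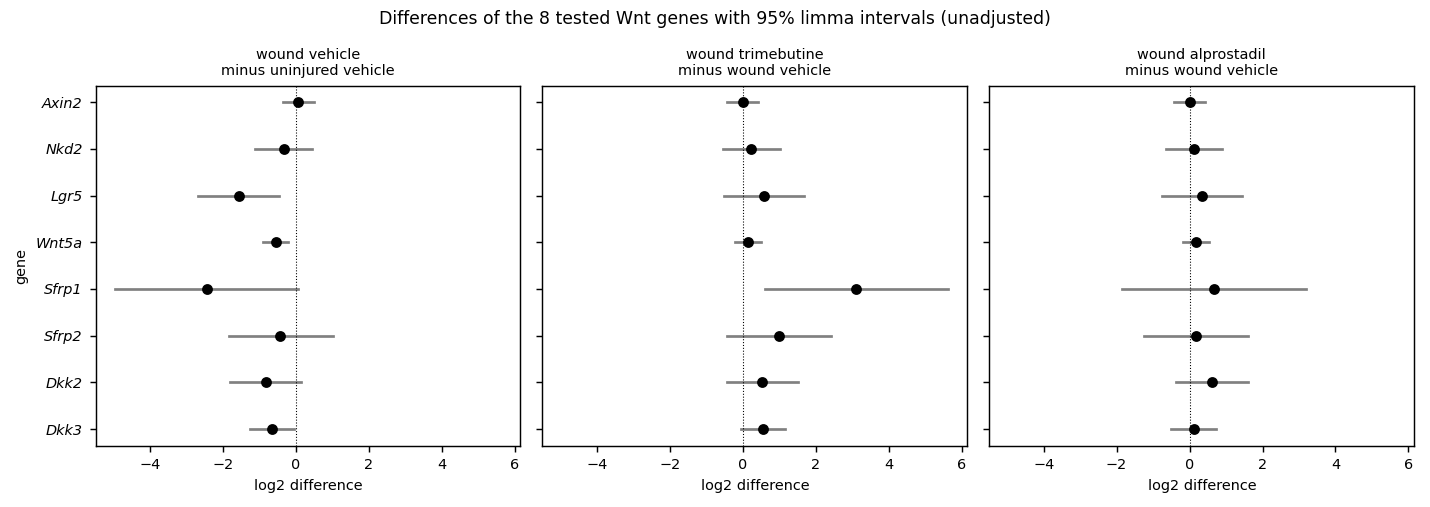
Log2 differences of the 8 tested Wnt genes (points) with 95% intervals (bars) for wound vehicle minus uninjured vehicle, wound trimebutine minus wound vehicle and wound alprostadil minus wound vehicle, from left to right. Intervals for Sfrp1 are the widest, from 0.60 to 5.63 for wound trimebutine minus wound vehicle, and those of Axin2 hold 0 in each panel.

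Spread within groups was wide for most of the antagonists. The standard deviation within groups was 1.57 log2 units for Sfrp1, higher than for 99.9% of the tested genes, 0.89 for Sfrp2 (98.4%), 0.68 for Lgr5 (96.5%) and 0.61 for Dkk2 (95.1%). It was 0.21 for Wnt5a and 0.26 for Axin2, against a median of 0.17 over all tested genes. The share of the variance over 12 arrays that lay between groups was 59.4% for Wnt5a, 52.3% for Lgr5 and 49.4% for Sfrp1, and 2.1% for Axin2, with a median of 30.1% over all tested genes.

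The arrays on which the genes were low recurred from gene to gene. On wound vehicle replicates 1 and 2, 1 of the 8 genes was above its own median over the 12 arrays, and on replicate 3 of that group 5 were. On wound alprostadil replicates 1, 2 and 3 the number was 1, 2 and 6, on wound trimebutine 5, 7 and 4, and on uninjured vehicle 7, 7 and 2.

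**Figure D3:**
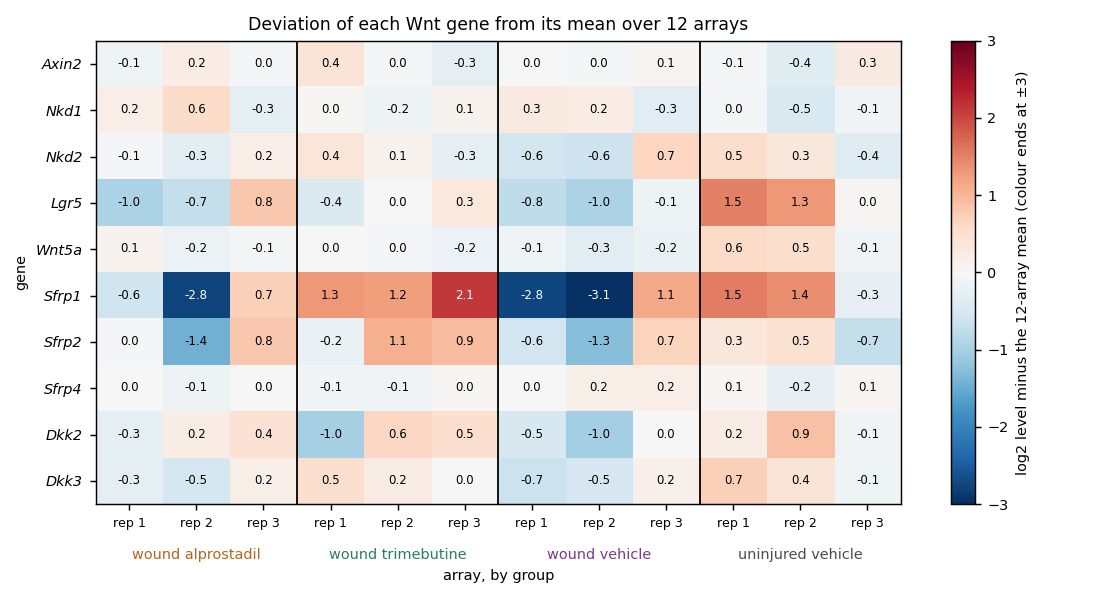
Level of each of the 10 Wnt genes (rows) on each of the 12 arrays (columns, by group) as the log2 difference from that gene's mean over the 12 arrays. Wound vehicle replicates 1 and 2 are low in most rows, and replicate 3 of the same group is not.

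Other measures differed on some of these arrays, though not on all of them. The mean level of the 10 dermal fibroblast markers was 12.02 and 12.06 on wound alprostadil replicates 1 and 2 and 12.13 and 11.90 on wound vehicle replicates 1 and 2, and 12.60 to 12.87 on the other 8 arrays. The 9 proliferation markers found had a mean of 6.99 on wound alprostadil replicate 2 and 6.97 and 6.68 on wound vehicle replicates 1 and 2, and of 7.50 to 9.27 on the others. The highest of these, 9.27, was on wound alprostadil replicate 1, where 1 of the 8 Wnt genes was above its median. The mean of the 14 markers of SKPs and dermal papilla, a list that holds Rspo3, was 8.94 and 8.77 on wound alprostadil replicates 1 and 2 and 8.82 and 8.71 on wound vehicle replicates 1 and 2, and 9.05 to 9.51 on the other 8 arrays. Among those 8 was uninjured vehicle replicate 3, where 2 of the 8 Wnt genes were above their medians. It had 12.60 for the fibroblast list and 9.14 for the SKP list. The macrophage mean on wound vehicle replicates 1 and 2 was 7.08 and 7.52, the highest after wound alprostadil replicate 1, and Ctss, a protease of macrophages, was 7.90 and 8.66 there. Csf1r, another marker of that list, was not raised on them, at 6.75 and 6.92 against 6.95 on wound trimebutine replicate 1. By group, the fibroblast mean lay between 12.02 and 12.77 in wound alprostadil, 12.70 and 12.73 in wound trimebutine, 11.90 and 12.72 in wound vehicle, and 12.60 and 12.87 in uninjured vehicle. Keratinocyte markers lay between 6.79 and 7.07 on all arrays, with 4 of the 13 found above the array median on every array and 6, among them Krt1 and Krt15, below it on every array. Cdh1, a cadherin of epithelial cells and one of these markers, was 8.62 on wound alprostadil replicate 1. Krt14, another of them, was 6.86 on that array, the same as on wound vehicle replicate 1. The part of these measures in the Wnt differences was not tested.

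Genes whose centred levels over the 12 arrays lay closest to one of the Wnt genes were named by the root mean square difference. Predicted genes and the Wnt genes of the set were left out of this search and of its medians. For Sfrp1 the closest genes were P4ha3, a prolyl hydroxylase subunit of collagen synthesis, at 0.49, Aoc3, an amine oxidase, at 0.49 and Cyp1b1, a cytochrome P450, at 0.51. The median over the tested genes searched was 1.81. For Sfrp2 they were Gadd45b, Iqgap2 and Fam167a, each at 0.32, against a median of 0.84. For Lgr5 they were Vstm4 at 0.26, and Peg3 and Grpr, each at 0.27, against a median of 0.83. These are descriptions over the same 12 arrays, with no test.

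Of 120 other genes of Wnt signalling listed by role, 115 were found, 90 were tested and 0 passed the adjusted threshold in any comparison. Receptors and coreceptors other than Lgr5 were below uninjured vehicle in wound vehicle for 12 of 15, with a median of -0.24, and above wound vehicle in wound trimebutine for 13 of 15, with a median of 0.44. The 8 other antagonists tested were the secreted Notum, Sost, Igfbp4 and Draxin and the membrane proteins Apcdd1, Kremen1, Kremen2 and Tpbg. Of these 8, 7 were below uninjured vehicle in wound vehicle, with a median of -0.25. In wound trimebutine 5 were above wound vehicle, with a median of 0.12. The 12 ligands and secretion genes tested more often went the other way, with 8 above uninjured vehicle in wound vehicle (median 0.13) and 8 below wound vehicle in wound trimebutine (median -0.09). Their largest differences of wound vehicle from uninjured vehicle were -1.06 for Wnt16 and, upwards, 0.82 for Wnt7b (adjusted p 0.168 and 0.245). Of 27 cytoplasmic and nuclear components, 15 were above uninjured vehicle in wound vehicle (median 0.02) and 18 above wound vehicle in wound trimebutine (median 0.04). Of 12 other targets, 8 were below uninjured vehicle in wound vehicle (median -0.3) and 9 above wound vehicle in wound trimebutine (median 0.21). With an unadjusted p under 0.05, 6 of them were lower in the first and 2 higher in the second. Among all 13153 genes 1084 were lower in the first and 839 higher in the second by the same p. Of the 15 receptors, 4 were lower in the first, and in the second 9 were higher and 1 lower. Over all 90 genes, 16 were lower and 4 higher in the first, and 22 higher and 6 lower in the second. For the R-spondin axis the counts below and above were 6 and 3 of 7, and for polarity and calcium genes 8 and 7 of 9. Over all roles 57 of 90 were below uninjured vehicle in wound vehicle, against 48.6% of all genes. In wound trimebutine 59 of 90 were above wound vehicle, against 50% of all genes. The medians over all roles were -0.1 and 0.11, and the wound vehicle arrays are shared by the comparisons.

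Rspo3, an R-spondin that signals through Lgr receptors and so concerns Lgr5, had 8.19, 7.89 and 8.58 in wound vehicle and 10.68, 10.66 and 9.85 in uninjured vehicle. No wound array, of any of the 3 groups, reached the lowest uninjured value, the nearest being 9.73 in wound trimebutine. Every wound array was below every uninjured one for 167 of the 13153 genes tested. The difference between wound vehicle and uninjured vehicle was -2.17 ± 0.43 (SE, adjusted p 0.118), the smallest p among the listed genes that were lower. Rspo2, of the same family, was 7.90, 7.52 and 7.53 in wound trimebutine and 6.88, 6.55 and 7.20 in wound alprostadil, a difference of 0.77 ± 0.24 (adjusted p 0.752). The groups were apart, as they were with trimebutine higher for 5.21% of all genes. Wound vehicle differed from uninjured vehicle in Rspo2 by -1.02 ± 0.24 (adjusted p 0.17). Csnk1e, a casein kinase that acts on Dishevelled, was higher in wound vehicle than in uninjured vehicle by 0.34 ± 0.08 (adjusted p 0.187). These genes and those of the next paragraph were picked for the smallest p, so groups apart among them are no further support.

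Lef1, a nuclear partner of beta-catenin, differed in the opposite direction from Sfrp1: it was 7.28, 7.92 and 7.61 in wound trimebutine and 8.61, 8.37 and 8.16 in wound vehicle. The groups did not overlap, as they did not with trimebutine lower for 872 of the 13153 genes tested. The difference was -0.78 ± 0.21 (SE, adjusted p 0.528), and wound trimebutine differed from wound alprostadil by -0.74 ± 0.21 (adjusted p 0.752), with these groups overlapping. Lrp6, the coreceptor bound by Dkk2, was 11.37, 11.45 and 11.56 in wound trimebutine and 11.04, 11.17 and 11.20 in wound vehicle, a difference of 0.33 ± 0.08 (adjusted p 0.528). In wound alprostadil against wound vehicle the listed gene of smallest p among those higher was Fzd4, a Frizzled receptor, at 0.46 ± 0.19, and among those lower it was the ligand Wnt7a at -0.20 ± 0.08 (adjusted p 0.998 for both). With trimebutine against wound vehicle Fzd4 was at 0.68 ± 0.19 and Wnt7a at -0.21 ± 0.08 (adjusted p 0.528 for both).

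**Figure D4:**
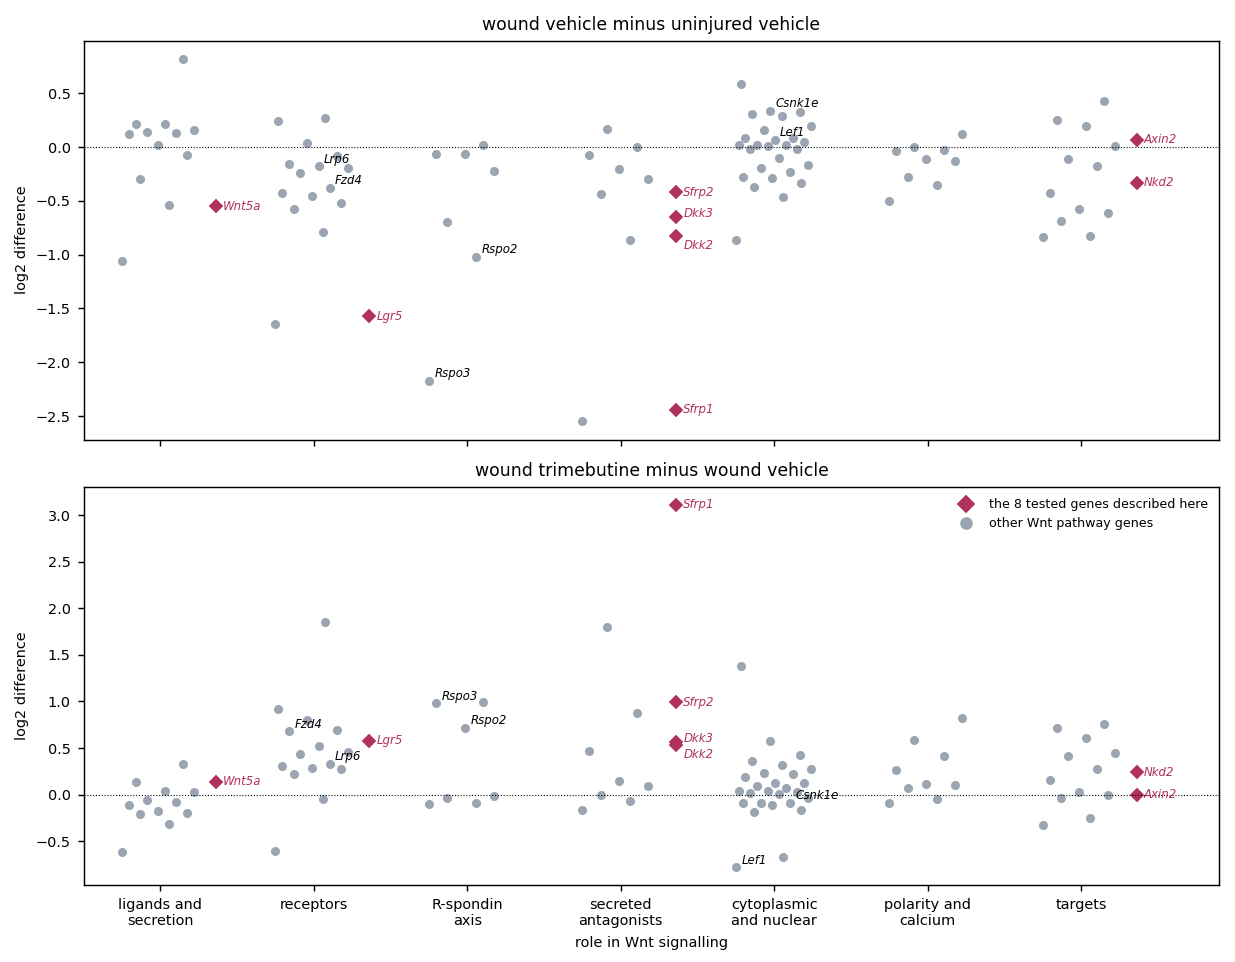
Log2 differences of the 90 other Wnt pathway genes tested (grey) and the 8 tested genes described here (red), by role, for wound vehicle minus uninjured vehicle (top) and wound trimebutine minus wound vehicle (bottom). Sfrp1 is near the edge of both panels, at -2.44 in the first and 3.11 in the second. Draxin, at -2.55 and 1.80, and Ror1, at -1.64 and 1.85, also lie far from 0 in both. The column of secreted antagonists also holds the membrane proteins Apcdd1, Kremen1, Kremen2 and Tpbg.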

How the data were processed

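RNA of 12 SKP cultures was hybridised to Affymetrix Mouse Gene 2.0 ST arrays, from 400 ng of total RNA each. Each deposited number is a log2 expression level of a probe set, which the authors obtained by RMA in oligo (an R package), per the submitters' processing notes. Their versions and settings, and the genome build, were not given in the sources used here, nor were scan dates. Of 41345 probe sets, 23521 carry 1 gene symbol, 1814 several and 16010 none in the platform annotation, and only the first kind was used. None of the 10 genes had a symbol on a shared probe set.

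The brightest probe set per symbol was kept (22180 genes), and testing required a level over the array's median on 3 or more of the 12 arrays (13153 genes). All 4 groups entered 1 limma model (version 3.58.1, R 4.3.3) without covariates, with moderated variances, 8 residual degrees of freedom and a prior of 2.27. Two-sided p-values were adjusted (Benjamini-Hochberg) over all 13153 genes and called at 0.05. Differences carry the model's standard error. The number of arrays limits the precision.

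The genes and lists were chosen with earlier results of these data known. Named besides the 10 genes were the listed Wnt genes of smallest p in each direction of each comparison, and the 3 genes with levels most like those of Sfrp1, Sfrp2 and Lgr5. Wnt16, Wnt7b, Draxin and Ror1 were given values for the size of their differences, with the results known. The comparison of all wound groups with uninjured vehicle gives the 3 wound groups equal weight. Alternatives were a replicate block, other filters, the mean of probe sets, cyclic loess, median centring, an intensity trend with robust variances, array weights, only the groups compared, and each array left out; leaving out together the 3 arrays whose medians were lowest was added after seeing the data. The model was tested on simulated data with independent noise for each gene and array. Deviations shared by many genes of an array were not simulated. Python 3.11.15 and matplotlib 3.10.9 drew the figures. Promoter windows are RefSeq's.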

Additional observations from a re-analysis of the deposited data

How the results depend on the processing

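The count of tested Wnt genes past the threshold was 0 in each comparison and stayed 0 under the alternatives run, except with array weights and when uninjured vehicle replicate 3 was left out. With array weights it was 6 for wound vehicle against uninjured vehicle, 4 for wound trimebutine against wound vehicle, 7 for all wound groups against uninjured vehicle and 7 in the F test; over all genes the same weights gave 4997, 4034, 4175 and 5302. Leaving out 1 array gave 0 to 1 Wnt genes for wound vehicle and for all wound groups against uninjured vehicle, the 1 being Wnt5a without uninjured vehicle replicate 3 (-0.65 and an adjusted p of 0.0249 for all wound groups, 0.00103 to 0.896 over the alternatives). The count over all genes ranged, leaving out 1 array, from 0 to 30 for wound vehicle against uninjured vehicle, where it was 6, from 0 to 76 for all wound groups, where it was 32, from 0 to 6 in the F test, where it was 2, from 0 to 11 for wound trimebutine against wound vehicle and from 0 to 1 for both comparisons with alprostadil. With the replicate block it was 2 for wound vehicle against uninjured vehicle and 0 in the F test, with no Wnt gene called. The labels do not say whether a replicate number marks a shared animal or batch. After group means were removed, 11 of 18 same-numbered pairs had a correlation over 0.1 (from -0.64 to 0.62). Of the 12 arrays, 5 correlated best with their own number. The 3 arrays of lowest median were all replicate 1 (6.57, 6.61 and 6.62), while wound vehicle replicate 1 had 6.73. Whether arrays of the same number belong together is not settled by these values. For wound vehicle against uninjured vehicle the count over all genes was 0 with a filter of 6 arrays and 1 with median centring. It was 0 with only the groups compared and 0 without the 3 arrays of lowest median. In the F test it was 0, 1 (also 1 with cyclic loess) and 0 in the first, second and last of these. For all wound groups it was 0 in the last. Signs turned in the following, none of them called in the fit reported. Axin2 was -0.06, -0.03, 0.06 and -0.06 with the mean of probe sets (wound vehicle, wound alprostadil against wound vehicle, the drugs, all wounds), and -0.05 with weights and -0.18 without the 3 arrays for trimebutine. Sfrp2 was -0.07 with weights for alprostadil, and 0.02 and 0.23 for all wounds with the mean of probe sets and without the 3 arrays. Between the drugs, weights and the 3 arrays gave 0.29 and 0.24 for Dkk2 and 0.03 and 0.00 for Wnt5a, and the 3 arrays -0.01 for Nkd2. Leaving out 1 array, the ranges that crossed 0 were -0.09 to 0.23 (Axin2) and -0.94 to 0.03 (Sfrp2) for wound vehicle against uninjured vehicle, -0.18 to 0.16 (Axin2) for trimebutine, -0.09 to 0.08 (Axin2), -0.11 to 0.52 (Nkd2), -0.14 to 2.02 (Sfrp1), -0.34 to 0.78 (Sfrp2) and -0.09 to 0.36 (Dkk3) for alprostadil, -0.19 to 0.15 (Axin2), -0.01 to 0.30 (Nkd2), -0.08 to 0.45 (Lgr5), -0.37 to 0.44 (Dkk2) and -0.11 to 0.04 (Wnt5a) between the drugs, and -0.09 to 0.23 (Axin2) and -0.40 to 0.19 (Sfrp2) for all wounds. Lgr5 gave no value with the filter of 6 arrays, the mean of probe sets, without the 3 arrays, and when replicate 3 of wound alprostadil or either of the first 2 uninjured vehicle replicates was left out, since it then failed the filter. The cause of the other changes was not tested.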
